A study of Homo sapiens with 6 samples.

Results

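C15orf48 and NDUFA4 are related small subunits of cytochrome c oxidase, the complex IV of the mitochondrial respiratory chain, and their mRNA levels were compared between T24 cells with and without knockdown of UBC9. Both genes were chosen by name from the 58174 rows of each expression file, and they were selected on their measured difference between the same groups of samples, so their levels, fold changes and ratio are given here as a description with no test. The 6 samples were 3 of shRNA-UBC9 and 3 of shRNA-NC. T24 is a long-used line of human bladder cancer cells, and both groups were stable lines made by lentiviral infection with a pLKO.1 vector and puromycin selection. The shRNA-UBC9 cells carried a single hairpin against UBC9, the conjugating enzyme of SUMO modification, and the shRNA-NC cells carried a scrambled hairpin, so an effect of this hairpin and an effect of the loss of UBC9 cannot be told apart. PolyA RNA was sequenced, and nothing in the labels says that the 3 samples of a group came from separate cultures, so p-values measure the spread between these samples, which may be technical.

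Complex IV passes electrons from cytochrome c to oxygen. NDUFA4 was first assigned to complex I and is now known as a subunit of complex IV. C15orf48, also called NMES1 or MOCCI, is a paralogue of NDUFA4 that is induced in inflammation and can take its place in the complex. The 3′ end of the C15orf48 transcript also encodes the microRNA miR-147b, which is known to act on NDUFA4 mRNA, so that the same transcript can supply a replacement subunit and a repressor of the original one.

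C15orf48 lies on the plus strand of chr15:45430579-45448761 (GRCh38, GENCODE 44), and its canonical transcript has 5 exons and 649 bases. NDUFA4 lies on the minus strand of chr7:10931943-10940153, with 4 exons and 2035 bases in its canonical transcript. Translated from those transcripts, the proteins have 83 and 81 residues, and 24 of 77 aligned residues (31.2%) were identical. The third member of the family, NDUFA4L2, on chromosome 12, was closer to NDUFA4 (52 of 77 aligned residues, 67.5%) than to C15orf48 (20 of 74, 27.0%). The hairpin of miR-147b lies at chr15:45433050-45433129, in exon 5 and the 3′ UTR of C15orf48. Its mature sequence (RefSeq, GRCh38.p14) is shown with the seed, bases 2 to 8, in capitals because this is the part by which a microRNA recognises its targets. Beside it stands the single match to that seed in the 3′ UTR of NDUFA4, in exon 4, with the match in capitals. The printed window around the match spans chr7:10933567-10933594 and is written 5′ to 3′ on the transcript strand.
hsa-miR-147b-3p: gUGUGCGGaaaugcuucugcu
NDUFA4 3′ UTR: tccagaagccacatCCGCACAattttcc
The match starts at base 56 of a 3′ UTR of 1693 bases. It was present in 453 of 19548 3′ UTRs (2.32%), and no other mature microRNA in the reference table shared this seed.

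Expression was deposited as RPKM, reads normalized to the length of the gene and to the mapped reads of the library. Low RPKM values rise in steps worth 1 read, and these steps gave about 28220000 to 36060000 mapped reads per sample and 18059 to 19725 genes above 0. Of 7 epithelial markers, the keratins KRT7, KRT8, KRT18 and KRT19 were at 19.3 RPKM or more in every sample, EPCAM was low (0.412, 0.986 and 0.575 RPKM in shRNA-NC and 2.51, 1.27 and 0.732 RPKM in shRNA-UBC9), and KRT5 and CDH1 were at or near 0. Of 7 urothelial markers, GATA3 was expressed, with 8.38, 5.23 and 9.36 RPKM in shRNA-NC and 4.15, 3.96 and 4.66 RPKM in shRNA-UBC9, whereas the uroplakins UPK1A, UPK1B, UPK2 and UPK3A, defining markers of urothelium, were under 0.5 RPKM in every sample, as were TP63 and KRT20. The epithelial markers, for the most part these 4 keratins, summed to 938.1 to 1107.8 RPKM in shRNA-NC and to 425.8 to 563.5 RPKM in shRNA-UBC9.

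C15orf48 was close to absent in control cells and abundant in every knockdown sample. It had 0.119, 0.308 and 0.0421 RPKM in shRNA-NC replicates 1 to 3, which correspond to 5, 15 and 2 reads. In shRNA-UBC9 replicates 1 to 3 it had 50.6, 41.6 and 14.3 RPKM, or 2564, 2060 and 566 reads. The groups did not overlap, and the lowest shRNA-UBC9 sample stood 46.3-fold above the highest shRNA-NC sample. The mean went from 0.157 ± 0.137 RPKM to 35.5 ± 18.9 RPKM (SD, n = 3 each), a ratio of means of 226.8. On the log2(RPKM + 0.1) scale, on which changes of low genes come out too small, the difference was 7.06 (SE 0.507), and without the pseudocount it was 8.07. C15orf48 passed the filter of at least 0.5 RPKM in at least 3 samples through the shRNA-UBC9 group alone. In RNA from whole cultures, more cells with the transcript and more transcript per cell cannot be told apart.

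The spread within the groups was wider for C15orf48 than counting error. In shRNA-UBC9 the exact 95% Poisson intervals were 48.7 to 52.6, 39.8 to 43.4 and 13.1 to 15.5 RPKM for replicates 1 to 3, and no pair of them overlapped. These intervals cover counting error only. In shRNA-NC they were 0.0387 to 0.278, 0.173 to 0.508 and 0.00509 to 0.152 RPKM, so replicates 2 and 3 were apart while replicate 1 overlapped both.

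NDUFA4 was measured at nearly the same level in both groups. It had 18.9, 19.7 and 21.7 RPKM in shRNA-NC replicates 1 to 3 and 20.1, 21.8 and 20.8 RPKM in shRNA-UBC9 replicates 1 to 3, each from 2011 to 2730 reads. The groups overlapped, and the means of 20.1 ± 1.43 and 20.9 ± 0.866 RPKM (SD, n = 3 each) differed by 3.95%. The log2 difference was 0.06 (SE 0.087). At the extremes, the lowest shRNA-UBC9 sample was 0.924 of the highest shRNA-NC sample, and the highest was 1.15 times the lowest. Leaving out each sample in turn gave log2 differences between 0.016 and 0.113, and other scalings of the libraries gave 0.014 to 0.044, so the value stayed slightly above 0 in each of these fits. Protein was not measured here.

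**Figure D1:**
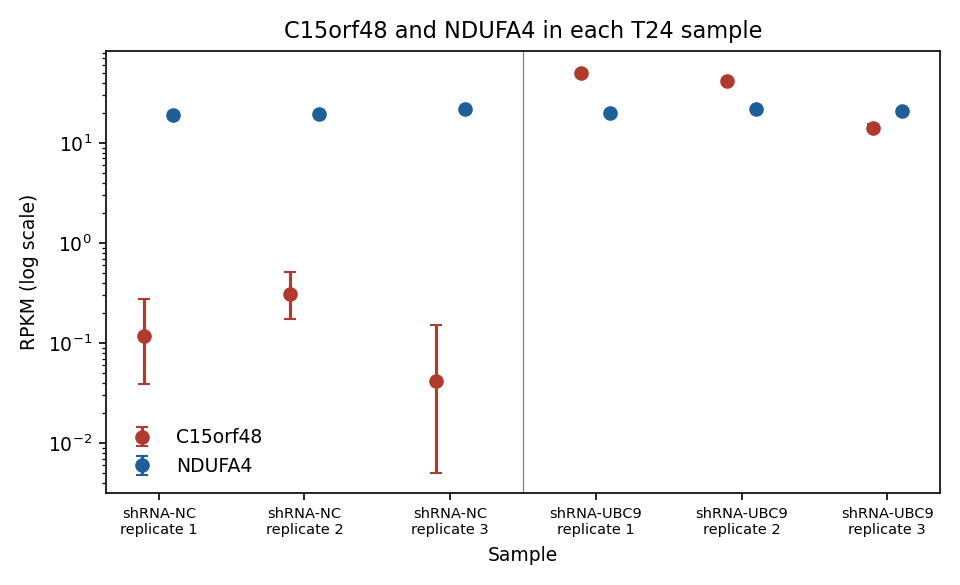
RPKM of C15orf48 (red) and NDUFA4 (blue) in each sample, on a log axis, with bars for the exact 95% Poisson interval of the recovered reads. C15orf48 goes from at most 0.308 RPKM in shRNA-NC to at least 14.3 RPKM in shRNA-UBC9, while NDUFA4 stays between 18.9 and 21.8 RPKM.

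The ratio of C15orf48 to NDUFA4 within a sample does not depend on how libraries are scaled. It was 0.00629, 0.0157 and 0.00194 in shRNA-NC replicates 1 to 3, so NDUFA4 exceeded C15orf48 by 158.9, 63.8 and 515.8 times. In shRNA-UBC9 replicates 1 to 3 the ratio was 2.52, 1.91 and 0.685. C15orf48 was thus the more abundant of the pair per base in shRNA-UBC9 replicates 1 and 2, and NDUFA4 was in replicate 3. As a share of the summed RPKM of both genes, C15orf48 made up 0.625%, 1.54% and 0.193% in shRNA-NC and 71.6%, 65.6% and 40.7% in shRNA-UBC9. The log2 ratio was -7.44 ± 1.51 in shRNA-NC and 0.57 ± 0.99 in shRNA-UBC9 (SD, n = 3 each), a difference of 8.01. This difference was 8.74 without shRNA-NC replicate 2 and 7.23 without shRNA-NC replicate 3, the samples with the most and the fewest C15orf48 reads among the controls, and each moved the fold by over 1.5 times.

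The sum of both genes was 19.1, 20.0 and 21.7 RPKM in shRNA-NC and 70.7, 63.4 and 35.1 RPKM in shRNA-UBC9. The mean difference in the sum was 36.1 RPKM, and since NDUFA4 differed little, nearly all of it was C15orf48. The ratio of the genes thus differed between the groups through C15orf48. The gene lengths behind the RPKM values were not stated, and the lengths that gave whole reads in all 6 samples, inferred from those values, were 1405 bases for C15orf48 and 3556 bases for NDUFA4. With reads taken per base of the canonical transcript instead, an alternative chosen after seeing the data, every ratio was 1.239 times as high, a factor that rests on the inferred lengths. It then was 0.0078, 0.0194 and 0.0024 in shRNA-NC and 3.13, 2.37 and 0.849 in shRNA-UBC9, and the order of the pair was the same in each sample.

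**Figure D2:**
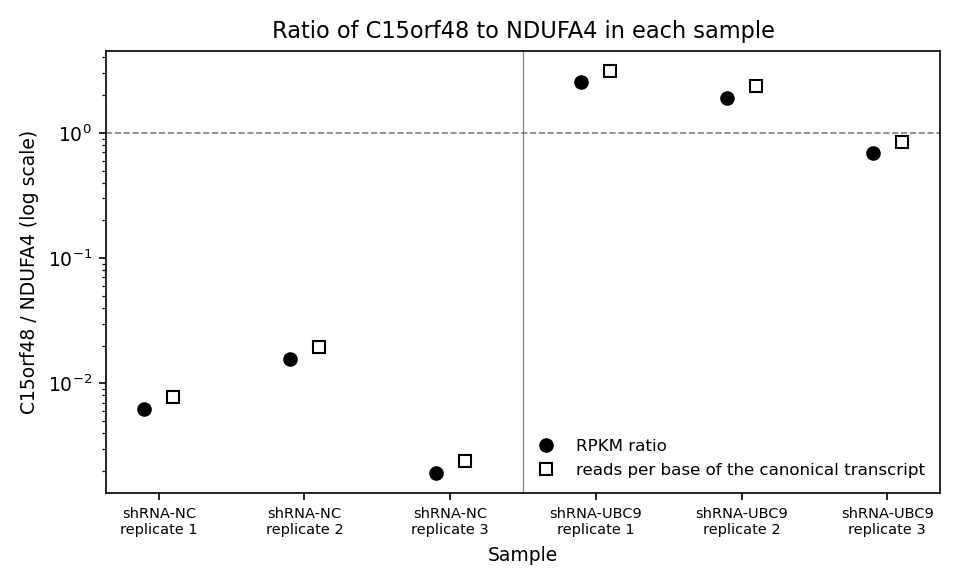
Ratio of C15orf48 to NDUFA4 in each sample on a log axis, from RPKM (filled circles) and from reads per base of the canonical transcript (open squares), with a dashed line at a ratio of 1. The 3 shRNA-NC samples lie at 0.0194 or lower by either measure, and shRNA-UBC9 replicates 1 and 2 lie above 1 while replicate 3 lies below it at 0.685 and 0.849.

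The third paralogue, NDUFA4L2, which is known as a target of hypoxia signalling, stayed near 0. It had 0.0412 to 0.179 RPKM in shRNA-NC and 0.0791 to 0.202 RPKM in shRNA-UBC9, from 4 to 16 reads a sample, and the groups overlapped. It did not pass the filter. The pseudogene NDUFA4P2 and MIR147B were listed at 0 in all 6 samples. MIR147B lies inside exon 5 of C15orf48 on the same strand, and how reads of overlapping genes were assigned is not given. Its value of 0 therefore does not show that this stretch of the transcript was absent. Mature microRNA is not captured by selection of polyA RNA, so miR-147b itself was not measured.

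Genes whose transcripts hold the miR-147b seed match were counted as an added description, chosen after the values were seen. Of 285 tested genes with a match, 7 were called higher and 9 lower in shRNA-UBC9 at a log2 fold change beyond 1 in size and an adjusted p below 0.05 (limma). Their median log2 fold change was -0.01. Of 10552 tested genes with a 3′ UTR and no match, 547 were called higher and 290 lower, with a median of 0.00. Over all 12428 tested genes, 5.20% were called higher and 2.70% lower. On the respiratory chain and assembly lists, among genes with a searched 3′ UTR, COX19 was the gene other than NDUFA4 with a match. COX19, a copper-handling assembly factor of complex IV, had a log2 fold change of -0.01 (SE 0.157, adjusted p = 0.954, limma). Tested genes in neither group had no searched 3′ UTR under the symbol used here. These can include list genes with older symbols, such as ATP5A1 and APOPT1, so a match in them was not tested.

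The tested neighbours of C15orf48 on the chromosome showed no difference of that kind. SPATA5L1, which lies 9164 bases before it, had 3.92 to 4.57 RPKM across all 6 samples (log2 fold change 0.03, SE 0.097, adjusted p = 0.856, limma), and SLC30A4, a zinc transporter on the other side, had 1.18 to 1.36 RPKM (log2 fold change -0.08, SE 0.128, adjusted p = 0.639, limma). GATM, an enzyme of creatine synthesis, was at most 0.0641 RPKM. The transcribed pseudogene HMGN2P46, 62375 bases away, was not tested, and its annotated span overlaps that of SLC30A4 on the opposite strand. It had at most 0.0108 RPKM in shRNA-NC and 0.476, 0.220 and 0.0573 RPKM in shRNA-UBC9 replicates 1 to 3, the same order over these replicates as C15orf48. Beside NDUFA4, PHF14 had 3.99 to 5.25 RPKM (log2 fold change -0.18, SE 0.111, adjusted p = 0.241, limma). The other neighbours, RNU6-953P and DPPA5P2 near C15orf48 and HSPA8P8, GAPDHP68, NXPH1, RPL23AP52 and NPM1P11 near NDUFA4, were listed at 0 in every sample.

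Among the nuclear subunits that NDUFA4 works beside in complex IV, no gene passed the test. Of 16 listed, 10 passed the filter, and limma called 0 of them in either direction, with 0 at an adjusted p below 0.05 and 0 at an unadjusted p below 0.05. Their log2 fold changes ran from -0.02 for COX6A1 to 0.15 for COX7A2 (adjusted p = 0.197), with a median of 0.07 beside 0.00 over all tested genes, and NDUFA4 at 0.06 sat inside this range. COX4I1, a core regulatory subunit, had 65.7 ± 2.59 RPKM in shRNA-NC and 70.1 ± 1.96 RPKM in shRNA-UBC9 (SD, n = 3 each). COX5A had a log2 fold change of 0.12, COX5B of 0.09, COX6B1 of 0.04 and COX6C of 0.12. For COX7B, COX7C and COX8A it was 0.01, 0.00 and 0.03. The isoforms of other tissues, COX4I2, COX6A2, COX6B2, COX7A1, COX7B2 and COX8C, were at or near 0 and were not tested.

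The level of C15orf48 came into the range of these subunits in shRNA-UBC9 replicates 1 and 2, but not in replicate 3. A comparison between genes also depends on the gene lengths behind the RPKM values, which were not stated. Relative to the median RPKM of the 10 subunits in the same sample, NDUFA4 stood at 0.278, 0.281 and 0.312 in shRNA-NC and at 0.281, 0.281 and 0.284 in shRNA-UBC9, below the lowest subunit, COX6C, in each sample. C15orf48 stood at 0.00441 or less in shRNA-NC and at 0.708, 0.537 and 0.195 in shRNA-UBC9. It ranked above 4 of the 10 subunits in shRNA-UBC9 replicates 1 and 2 and below all 10 in replicate 3.

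Among the 3 core subunits of complex IV encoded by mitochondrial DNA, MT-CO3 and MT-CO2 were lower in shRNA-UBC9. MT-CO3 had 2100, 2382 and 2342 RPKM in shRNA-NC and 1342, 1303 and 1412 RPKM in shRNA-UBC9, and its log2 fold change was -0.75 (SE 0.087, adjusted p = 0.00056, limma). MT-CO2 was lower by a smaller amount, at -0.34 (SE 0.0892, adjusted p = 0.0191, limma), and MT-CO1, at -0.23, missed the threshold (adjusted p = 0.0564, limma). The fold cutoff was passed by 0 of 3. By adjusted p alone, 18.8% of all tested genes were higher and 18.0% lower, so 2 of 3 lower genes is to be read beside a large background. MT-ATP8 and MT-ATP6, complex V subunits encoded next to MT-CO3, were lower too, at -0.52 (adjusted p = 0.00154) and -0.50 (adjusted p = 0.00314, limma).

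**Figure D3:**
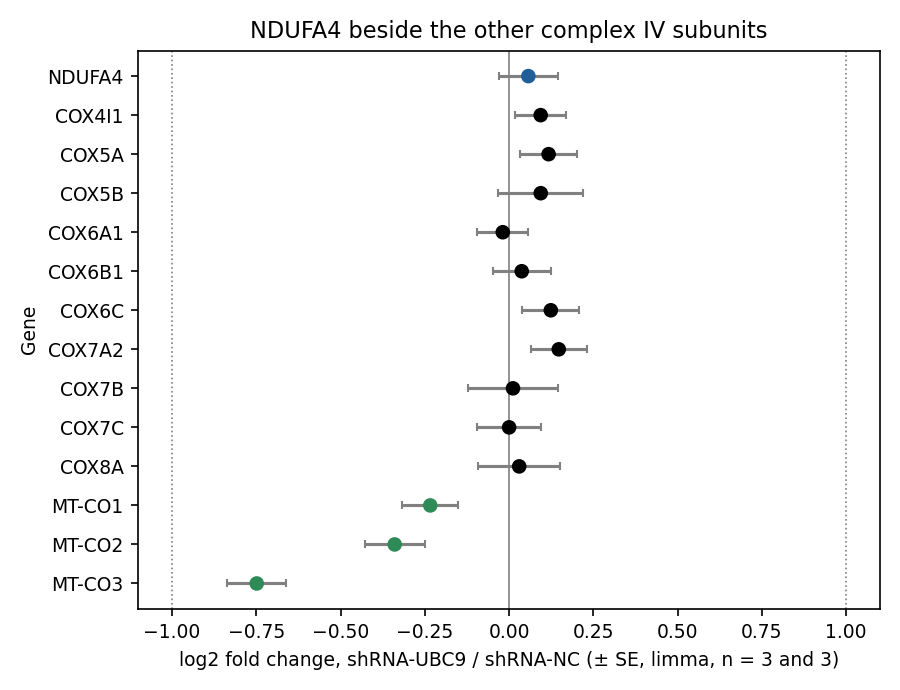
Log2 fold change of shRNA-UBC9 over shRNA-NC with its SE (limma, n = 3 and 3) for NDUFA4 (blue) and for the tested complex IV subunits encoded in the nucleus (black) and in mitochondrial DNA (green), with dotted lines at the fold cutoff. NDUFA4 at 0.06 lies among the nuclear subunits, which run from -0.02 to 0.15, and MT-CO3 is lowest at -0.75; C15orf48 at 7.06 is beyond this axis and is left out.

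No assembly factor of complex IV passed the fold cutoff. Of 30 listed, 29 were in the files and all 29 were tested, and limma called 0, while 6 passed an adjusted p below 0.05 regardless of fold and 6 an unadjusted p below 0.05. The 3 higher were COX17, a copper chaperone (0.54, from 5.40 to 7.89 RPKM on average), PET117 (0.49) and CMC1 (0.43). The 3 lower were TIMM21 (-0.38), COX11 (-0.33) and COA3 (-0.25). The median over the 29 was 0.02. By adjusted p alone 18.8% of all tested genes were higher and 18.0% lower, larger shares than 3 of 29. The share of all tested genes at an unadjusted p below 0.05 is not given here, for this or the other lists.

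Across the other complexes of the respiratory chain, small differences like that of NDUFA4 were common. NDUFA4 shares the name of the complex I family. Of 37 complex I subunits 0 were called higher (against 5.20% of all tested genes) and 1 lower (against 2.70%). The gene called lower was NDUFB5, a membrane-arm subunit with 5.93, 5.72 and 6.26 RPKM in shRNA-NC and 2.03, 2.67 and 3.22 RPKM in shRNA-UBC9 (log2 fold change -1.17, SE 0.156, adjusted p = 0.00103, limma). Without shRNA-UBC9 replicate 1 NDUFB5 was at -0.998, short of the cutoff. By adjusted p alone 3 complex I genes were higher and 4 lower, and NDUFAB1, the mitochondrial acyl carrier protein, was the highest at 0.56. The background for these counts, and for those of complexes II, III and V, is 18.8% of all tested genes higher and 18.0% lower. In complex II, 0 of 3 tested genes were called. SDHB was higher by adjusted p alone (0.32, adjusted p = 0.0146), which was also the 1 gene at an unadjusted p below 0.05, and SDHC was the lowest at -0.11. Complex III with cytochrome c had 0 of 10 called, with UQCRB lower at -0.34 (adjusted p = 0.0434), the 1 gene at an unadjusted p below 0.05, and UQCR11 the highest at 0.15. Complex V had 0 of 18 called, with ATP5A1, the alpha subunit of ATP synthase, lowest at -0.30 (adjusted p = 0.0255) and ATP5J highest at 0.16, and 2 genes passed by adjusted p alone and 3 by unadjusted p.

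Together, these nuclear lists for complexes I, II, III, IV and V held 78 tested genes, with a median log2 fold change of -0.02. Of the 78, 0 were called higher (against 5.20% of all tested genes) and 1 lower (against 2.70%). NDUFA4 ranked below 28 and above 50 of them, and over all tested genes 55.3% had a lower log2 fold change. C15orf48 was eighth from the top of the 12428 by the same measure. Of the 10 mitochondrial mRNAs other than those of complex IV, limma called 0, with 3 in all at an unadjusted p below 0.05. By adjusted p alone 1 was higher (against 18.8% of all tested genes) and 2 lower (against 18.0%). MT-ND1, a complex I subunit, was the highest at 0.42 (adjusted p = 0.0111) and MT-ATP8 the lowest.

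Factors that drive the making of mitochondria were tested as a further list. Of 14, 12 passed the filter and limma called 0, with 4 at an adjusted p below 0.05 regardless of fold and 5 at an unadjusted p below 0.05. At that adjusted p 18.8% of all tested genes were higher and 18.0% lower, so 4 of 12 is no more than the background. ESRRA, a nuclear receptor for genes of oxidative metabolism, was the highest at 0.90 (SE 0.0839, adjusted p = 0.000219, limma), from 10.3 to 19.4 RPKM on average. GABPB1 (-0.51), NRF1 (-0.49) and TFB1M (-0.45) were lower. PPARGC1A and PPARGC1B, the coactivators, had means under 0.5 RPKM in both groups and were not tested.

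Mitochondrial proteins known from immune responses were the list in which large changes lay beside that of C15orf48. Of 10 listed, 9 were tested, and limma called 4 higher (against 5.20% of all tested genes) and 1 lower (against 2.70%). The list was chosen with earlier results of these data known, so these counts are a description and no test of the list. BCL2A1, an anti-apoptotic BCL2 relative, rose from 0.400, 0.716 and 0.190 RPKM to 26.7, 32.8 and 32.8 RPKM (log2 fold change 5.97, SE 0.319, adjusted p = 1.57e-05, limma). CMPK2, a mitochondrial nucleotide kinase induced by interferon, rose from 0.304, 0.866 and 0.227 RPKM to 5.45, 22.4 and 6.02 RPKM (4.18, SE 0.571, adjusted p = 0.00115, limma). BCL2A1 and CMPK2 passed the filter through their shRNA-UBC9 samples, since shRNA-NC replicate 2 alone of the controls reached its RPKM bound. Their p-values thus follow a selection on the shRNA-UBC9 level and are to be read as a description. The group with the knockdown was highest in replicate 2 for CMPK2 and in replicate 1 for C15orf48.

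SOD2, the superoxide dismutase of the mitochondrial matrix, rose from 7.61, 10.9 and 5.48 RPKM to 47.0, 55.7 and 40.6 RPKM (2.60, SE 0.230, adjusted p = 0.000171, limma). PNPT1, an RNA-degrading enzyme of mitochondria, rose by 1.22 (adjusted p = 0.00678, limma) and was at 0.923 without shRNA-UBC9 replicate 2, below the cutoff. UCP2, an inner-membrane carrier, fell from 23.4, 25.4 and 18.5 RPKM to 3.65, 6.10 and 7.28 RPKM (-2.01, SE 0.237, adjusted p = 0.000597, limma). ACOD1, the enzyme that makes itaconate in activated macrophages, was listed at 0 in all shRNA-NC samples and had 0.497, 4.28 and 1.22 RPKM in shRNA-UBC9, and it was not tested because 1 sample of that group missed the filter. MAVS, the adaptor for viral RNA sensors, was lower by adjusted p alone (-0.41, adjusted p = 0.0065, limma). ARG2, NLRX1 and TSPO did not pass, with log2 fold changes of 0.39, -0.20 and -0.07.

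**Figure D4:**
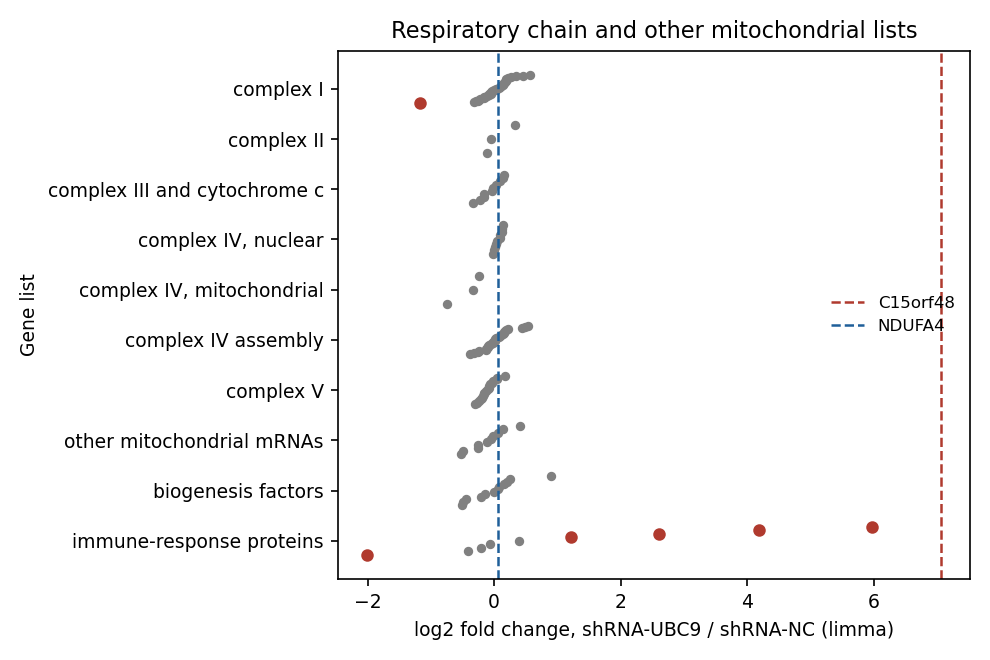
Log2 fold change of shRNA-UBC9 over shRNA-NC (limma) for every tested gene of 10 lists, one point a gene, ordered within each row, with called genes in red and dashed lines at NDUFA4 (blue) and C15orf48 (red). The respiratory chain lists gather around the NDUFA4 line at 0.06 with NDUFB5 at -1.17 apart, and the immune-response list runs from -2.01 to 5.97, below the C15orf48 line at 7.06.

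The genes with the profile nearest to that of C15orf48 were picked by the smallest root mean square difference of log2(RPKM + 0.1), centred on the mean of shRNA-NC, over the 6 samples. They were SLPI (0.397), CCL20 (0.581), PTGS2 (0.590), MMP1 (0.632) and MMP3 (0.830). SLPI is a secreted protease inhibitor, CCL20 a chemokine, PTGS2 the inducible cyclooxygenase, and MMP1 and MMP3 are matrix metalloproteinases. SLPI had 0.0562, 0.484 and 0 RPKM in shRNA-NC and 34.9, 31.3 and 15.04 RPKM in shRNA-UBC9, so its highest control was replicate 2 and its lowest knockdown sample replicate 3, as for C15orf48. CCL20 had 146.7, 91.2 and 46.9 RPKM, PTGS2 197.3, 112.2 and 77.4 RPKM and MMP1 80.6, 67.8 and 39.8 RPKM in shRNA-UBC9 replicates 1 to 3, each in the order of C15orf48. MMP3, with 13.3, 37.6 and 16.2 RPKM, had another order. These genes were chosen for the likeness, which therefore carries no test.

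**Figure D5:**
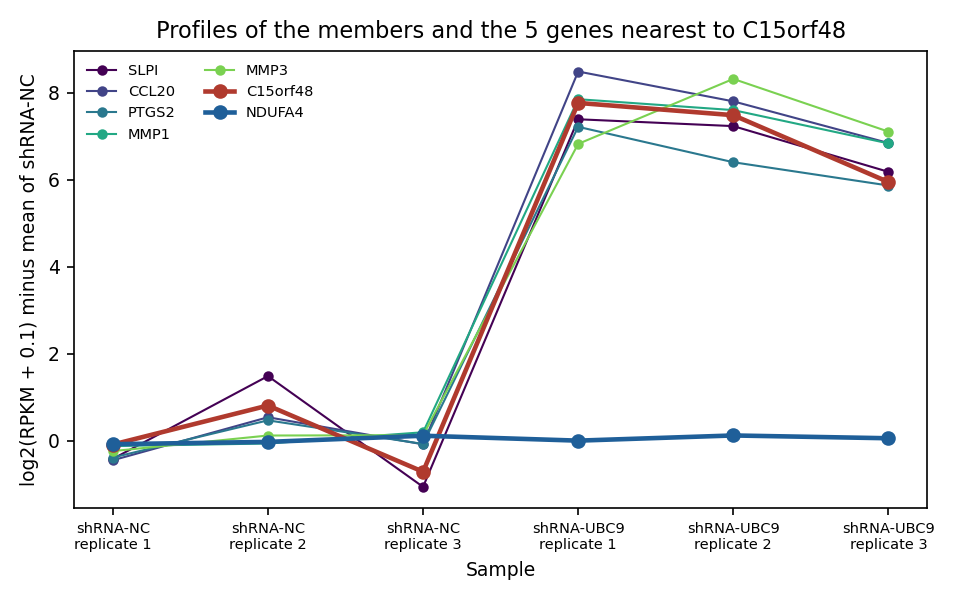
log2(RPKM + 0.1) minus the mean of the shRNA-NC samples, by sample, for C15orf48 (thick red), NDUFA4 (thick blue) and the 5 genes with the profile nearest to C15orf48 (thin lines). C15orf48 and SLPI share a high value in shRNA-NC replicate 2 and a low one in shRNA-UBC9 replicate 3, and NDUFA4 stays near 0 throughout.

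By the same measure the genes nearest to NDUFA4 were SETDB2, RSL24D1, RAD17, WDR70 and ADAM23, at distances of 0.023 to 0.033. Within a distance of 0.1 lay 741 genes, so the profile of NDUFA4 was a common one. RSL24D1, a ribosome assembly factor, ran from 23.2 to 25.9 RPKM over the 6 samples, and the log2 fold changes of the 5 genes lay between 0.04 and 0.07.

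C15orf48 is also expressed in macrophages, so markers of leukocytes were read beside it. The 8 markers summed to 2.501 to 4.596 RPKM in shRNA-NC and to 20.4 to 49.96 RPKM in shRNA-UBC9, and CD68, a lysosomal protein that other cells express as well, was the largest part in each sample, with 3.24, 1.53 and 3.17 RPKM against 18.6, 48.4 and 29.4 RPKM. CD14 had 0.657, 0.260 and 0.642 RPKM in shRNA-NC and 0.706, 0.692 and 0.752 RPKM in shRNA-UBC9. The part of these markers in the difference of C15orf48 was not tested, and the defining ones were low in both groups, with PTPRC at most 0.102 RPKM and CSF1R at most 0.0344 RPKM. PTPRC had 0, 0.0931 and 0.0883 RPKM in shRNA-NC and 0.0629, 0.102 and 0 RPKM in shRNA-UBC9. LYZ had 0, 0.409 and 0.536 RPKM in shRNA-NC and 0.786, 0.595 and 0 RPKM in shRNA-UBC9. CD3E had 0, 0.173 and 0.145 RPKM in shRNA-NC and 0.185, 0.130 and 0 RPKM in shRNA-UBC9. These 3 markers were thus at 0 in shRNA-NC replicate 1 and in shRNA-UBC9 replicate 3, where C15orf48 had 0.119 and 14.3 RPKM. Within shRNA-UBC9, LYZ and CD3E ran in the same order over the replicates as C15orf48. CD68, PTPRC and ITGAM were instead highest in shRNA-UBC9 replicate 2, and CD14 and CSF1R in replicate 3. The control with the most C15orf48, shRNA-NC replicate 2, also had the most PTPRC, CD3E and ITGAM of its group, but the least CD68 and CD14. LYZ and CSF1R were highest in shRNA-NC replicate 3, the control with the least C15orf48. Without shRNA-NC replicate 1 the log2 difference of C15orf48 was 7.02, and without shRNA-UBC9 replicate 3 it was 7.62. The 5 fibroblast markers summed to 0.978 to 1.32 RPKM in shRNA-NC and to 0.882 to 1.27 RPKM in shRNA-UBC9, with COL1A1 at 0.307, 0.535 and 0.289 RPKM against 1.06, 0.772 and 0.624 RPKM and PDGFRB at 0.582, 0.688 and 1.02 RPKM against 0.194, 0.219 and 0.194 RPKM. The 4 endothelial markers, mostly CDH5, summed to 2.64 to 3.26 RPKM and to 0.338 to 1.07 RPKM.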

How the data were processed

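Total RNA of T24 cells was made into polyA libraries with a TruSeq kit, and reads were trimmed and mapped to GRCh38 (hg38) with the CLC Biomedical Genomics Workbench. Per sample, the authors deposited an RPKM value for each of 58174 genes. The annotation release, the use of strand and the treatment of reads with several places are not given in the sources used here, so genes with near-identical copies or overlapping neighbours are uncertain. Groups were taken from the sample labels.

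Read steps in the low RPKM values, with gene lengths of GENCODE 44, gave the depth (about 28220000 to 36060000 mapped reads). At 3019 genes with a usable step, 699 gave the same estimate, and reads of C15orf48, NDUFA4 and NDUFA4L2 were then computed at the gene length, inferred from the same values, that brought all 6 samples nearest to whole reads (1405, 3556 and 2806 bases, beside 1355, 3461 and 2803 exonic bases in GENCODE 44), so their being whole is no independent check. The reads were used for the printed counts, the intervals and the ratio per canonical transcript, and not for any test.

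The 12428 genes with RPKM of at least 0.5 in at least 3 samples were compared on log2(RPKM + 0.1) with limma 3.58.1 in R 4.3.3 (eBayes with trend, Benjamini-Hochberg over all tested genes). A gene was called at a log2 fold change beyond 1 in size and an adjusted p below 0.05. No exact permutation test was used, since with 3 samples a group its smallest p is 0.1. In simulated data with 12428 genes, 97.5% of the 200 given a log2 fold change of 2 were recovered and 1 other gene was called. The simulated noise was normal and independent between genes, and all other genes were left unchanged. It therefore did not cover smaller differences or a background with many changed genes, as in these data.

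The members and lists were chosen with earlier results of these data known. Genes named were the members, their family, MIR147B, called genes of each list (the 4 with the largest change where more were called, and PNPT1, the fifth, besides), the highest and lowest gene of each list, tested complex IV subunits, the 5 nearest profiles to each member and the 3 nearest annotated genes on each side. Genes passing by adjusted p alone, immune-response genes that did not pass and untested list genes were named after their values were seen. SCO2 and SDHD were not used here, and the level of the targeted gene is not reported here. The alternatives were other pseudocounts, filters, scalings and thresholds, no trend, a replicate block and leaving out each sample. Python 3.11.15, numpy 2.4.6, pandas 2.3.3, scipy 1.17.1, biopython 1.88 and matplotlib 3.10.9 were used.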

Additional observations from a re-analysis of the deposited data

How the results depend on the processing

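C15orf48 was higher in shRNA-UBC9 under every setting that gave a value, with a log2 difference of 4.81 at a pseudocount of 1 and 6.71 to 7.62 when single samples were left out. Requiring an RPKM of at least 1 in all samples removed it from the test. Its log2 ratio to NDUFA4 differed by 4.75 at a pseudocount of 1 and by 7.23 to 8.74 when single samples were left out. Genes called higher numbered 391 at a pseudocount of 1, 342 with an RPKM of at least 1 in all samples and 2339 with no fold cutoff, and genes called lower numbered 161, 210 and 2237. With no fold cutoff the counts were 2 for mitochondrial complex IV subunits, 6 for assembly factors, 7 for complex I, 1 for complex II, 1 for complex III, 2 for complex V, 3 for other mitochondrial mRNAs and 4 for biogenesis factors. Complex I had 0 called at a pseudocount of 1, and 0 to 1 when single samples were left out, with 0 without shRNA-UBC9 replicate 1. The immune-response list had 3 called with an RPKM of at least 1 in all samples, where fewer genes were tested. For 17 named genes and 15 settings, among the fits that gave a value the call changed for 2 genes. They were NDUFB5 (-0.948 at a pseudocount of 1 and -0.998 without shRNA-UBC9 replicate 1) and PNPT1 (0.923 without shRNA-UBC9 replicate 2). Requiring an RPKM of at least 1 in all samples also removed BCL2A1, CMPK2, CCL20, MMP1, MMP3, PTGS2 and SLPI from the test, so their calls were not checked there. Where no value shows it, the cause was not tested. Samples with the same replicate number showed no likeness in their deviations from the group means (correlations of -0.367, 0.073 and -0.17). Deviations within a group of 3 sum to 0, so these correlations depend on each other and do not show whether samples were handled in pairs. Across numbers, shRNA-NC replicate 1 and shRNA-UBC9 replicate 3 had the largest correlation, 0.526, and the others ran from -0.318 to 0.225. These samples had the fewest mapped reads, about 29850000 and 28220000, and PTPRC, LYZ and CD3E were at 0 in both. The source of this likeness was not tested. With the replicate block 642 genes were called higher and 332 lower (limma), and the difference of C15orf48 was 7.06. Depth limits C15orf48 in shRNA-NC, where 2 to 15 reads carry each value.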
